A study of Mus musculus with 4 samples.

Results

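The genes described here are 10 mouse tetraspanins, chosen by name, measured in tumour-associated macrophages after imatinib or vehicle: Cd37, Cd53 and Tspan32, known mainly from leukocytes; Cd9, Cd63, Cd81, Cd82 and Cd151, known from many cell types; and Tspan1 and Tspan8, known mainly from epithelium. In the platform annotation 9 of the 10 had a probe set that names that gene alone, so that 9 of the 12393 genes named on the array are described, through 20 probe sets; Cd63 was not analysed here. The cells came from GIST mice, which develop gastrointestinal stromal tumour, a sarcoma of the gut wall. Mice of one group drank water with 600 mg/L of imatinib, a tyrosine kinase inhibitor that acts on Kit and also on Csf1r, and treatment lasted 2 weeks; the other group was the vehicle control. The labels give no allele, strain, age, sex or sort gate. Macrophages were sorted from the tumours of 8 mice per group and pooled, and each pool was run on 2 Affymetrix arrays from 200 ng of RNA. The titles call these arrays biological replicates while the design text describes duplicates of a pool, so the p-values below rest on array-to-array spread, possibly technical, and do not cover the spread between mice.

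Tetraspanins are small proteins that cross the cell membrane several times and gather integrins, immune receptors and proteases into membrane domains. In leukocytes they organise antigen receptors, pattern-recognition receptors and adhesion, while in epithelium they sit with cell-adhesion molecules and laminin-binding integrins. Cd9, Cd63 and Cd81 are also standard markers of extracellular vesicles.

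All 4 arrays carried signals of both macrophage and epithelial markers. Csf1r, which encodes the macrophage growth factor receptor, had signals of 31382 and 29178 on the imatinib arrays and 27103 and 28656 on the vehicle arrays, and the lysosomal protease gene Ctss had 37535 and 35374 against 39047 and 36577. Krt8, a keratin of simple epithelia, had 1853 and 1867 with imatinib and 9373 and 9653 with vehicle. Of 8156 genes tested with limma on log2(signal + 32), 6.74% were higher and 8.85% lower with imatinib (adjusted p below 0.05, Benjamini-Hochberg). Of 14 macrophage markers tested, 11 were higher, and Csf1r and Ctss, chosen by brightness, were among the 3 that did not pass. Of the 11, the call of Itgam is not independent of a signal filter described below. The mean of the Csf1r probe sets did pass as higher (log2 difference 0.30, limma adjusted p = 0.012). A ratio that reflects RNA integrity, that of the Gapdh control probe sets at the 3' and 5' ends, was 2.34 and 2.09 with imatinib and 2.91 and 2.76 with vehicle. The same ratio of the actin control probe sets was 3.06 and 2.71 with imatinib and 3.99 and 3.58 with vehicle. The part of RNA integrity in the results below was not tested. Signals of different probe sets are not comparable with each other, so levels are compared only within a gene.

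The epithelial tetraspanins fell, 2 of 2. Tspan8, a tetraspanin of gut epithelium that associates with integrins and with Epcam, had signals of 463 and 477 on the imatinib arrays and 2665 and 2953 on the vehicle arrays. The groups did not overlap, and both imatinib arrays lay far below both vehicle arrays. The mean was 470.2 ± 9.91 with imatinib and 2809 ± 204 with vehicle (SD, n = 2 each), a log2 difference of -2.50 ± 0.10 (SE, limma adjusted p = 1.2e-07) and 5.65-fold lower on the log2(signal + 32) scale. By size this was number 9 from the lowest of the 8156 tested genes. Tspan1, a tetraspanin of secretory and other simple epithelia, had 169 and 201 with imatinib and 960.4 and 962 with vehicle. Its vehicle arrays were nearly equal, and its imatinib arrays were again well below them. The log2 difference was -2.20 ± 0.14 (SE, limma adjusted p = 2.3e-06), 4.59-fold lower and number 34 from the lowest.

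Every probe set of both genes repeated this direction. The second Tspan1 probe set had 147 and 160.2 with imatinib and 635 and 616 with vehicle, a log2 difference of -1.83. The dimmer probe sets of Tspan8 differed by -1.42, -1.50 and -1.70, with limma adjusted p-values of 0.0017 or lower in the fit of each probe set on its own. All 6 epithelial probe sets passed as lower, where 7.48% of 12488 tested probe sets did. The dimmest, a Tspan8 probe set, had 43.5 and 35.2 with imatinib and 233 and 171 with vehicle. It reached the signal filter of 82.9 only through its vehicle arrays, so its call is not independent of the filter. The pseudocount of 32 holds the dim ones closer to 0, so the sizes of the probe sets of a gene cannot be ranked.

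**Figure D1:**
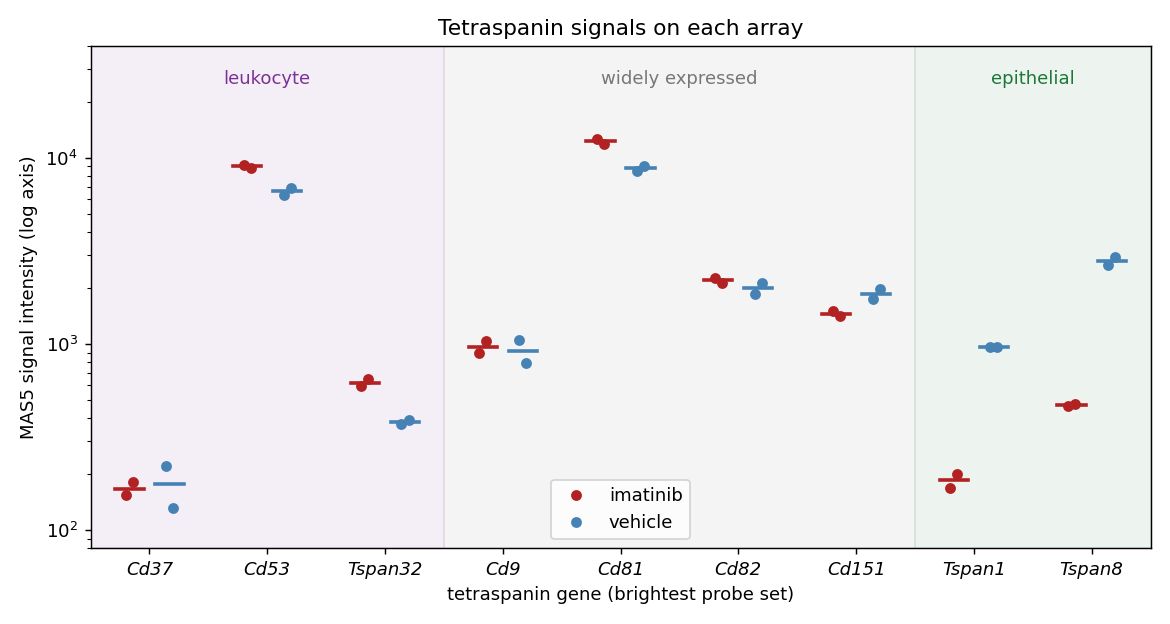
MAS5 signal intensity (log axis) of the brightest probe set of each tetraspanin gene on the 2 imatinib arrays (red, left) and the 2 vehicle arrays (blue, right), with bars at the group means. Tspan1 and Tspan8 lie far lower on the imatinib arrays, while Cd53, Tspan32 and Cd81 lie higher on them and the groups of Cd37 and Cd9 overlap.

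Genes that mark epithelium moved over the same range. All 13 epithelial markers were lower, with a median log2 difference of -2.15 and a range of -2.89 to -1.30, and Tspan1 and Tspan8 lay inside that range. The signal filter of 82.9 used the mean over all arrays, and Cdx1 and Cldn4 reached it only through their vehicle arrays. Their means were 19.5 and 66.2 with imatinib and 147 and 275 with vehicle, so their calls as lower are not independent of the filter. Neither sets an end of the range. The summed signal of the 13 markers, taken without detection calls, was between 5772 and 5945 with imatinib and between 27540 and 27710 with vehicle. Their part in the difference of Tspan1 and Tspan8 was not tested. In bulk RNA of a sort, fewer cells of a type and less RNA per cell cannot be told apart.

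Among the leukocyte tetraspanins, 2 of 3 rose and Cd37 did not pass the test. Cd53, which is found on nearly all leukocytes, had signals of 9197 and 8831 with imatinib and 6309 and 6923 with vehicle. The lower imatinib array was above the higher vehicle array. The means were 9014 ± 259 with imatinib and 6616 ± 434 with vehicle (SD, n = 2 each), 1.36-fold higher, with a log2 difference of 0.45 ± 0.08 (SE, limma adjusted p = 0.0029). Tspan32, a blood-cell tetraspanin known as a negative regulator of T cell responses in mice, had 593 and 647 with imatinib and 374 and 392 with vehicle. These arrays were also apart, and the difference of 0.65 ± 0.13 (SE, limma adjusted p = 0.0056), or 1.57-fold higher, was the largest increase among the 9 tetraspanins measured.

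Cd37, a tetraspanin most abundant on mature B cells, was dim. Its brighter probe set had 154 and 181 with imatinib and 223 and 131 with vehicle. The vehicle arrays lay on either side of the imatinib arrays. The log2 difference was -0.04 ± 0.24 (SE, limma adjusted p = 0.95), or 0.13 with array medians set equal, 0.09 after quantile normalization and -0.53 with the macrophage list set equal (limma adjusted p = 0.0825), and its 95% interval of -0.57 to 0.50 covers a rise as large as that of Cd53. Its other probe set had signals of 27.0 or lower on every array, which the signal filter left out of the test. Of 7 tested B cell markers, 2 were higher and 1 lower, against 6.74% and 8.85% over all tested genes.

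Macrophage markers moved over a wide range, which holds the leukocyte tetraspanins but also Cd9, Cd81, Cd82 and the median of all tested genes (-0.02). Of 14 macrophage markers tested, 11 were higher and none lower, with a median log2 difference of 0.44 and a range of -0.05 to 1.16. Their summed signal was between 169850 and 179940 with imatinib and between 137520 and 140570 with vehicle. When the arrays were scaled to equal levels of this list, which lowers every log2 difference by 0.50, Cd53 was at -0.05 and Tspan32 at 0.15, and neither passed the test (limma adjusted p = 0.49 and 0.29). Both were thus higher relative to all genes on the array, and neither was called relative to the mean of this list. A missing call does not show an equal change, and the comparison depends on the marker. Cd53 and Tspan32 lay above Csf1r (0.12) and Ctss (-0.05) and below the largest marker difference (1.16).

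The widely expressed tetraspanins did not move as one. Cd81, which occurs on most cells and takes part in adhesion and immune signalling, had 12631 and 11943 with imatinib and 8543 and 9073 with vehicle. The groups were apart by more than the spread within either. The means of 12287 ± 486 with imatinib and 8808 ± 375 with vehicle (SD, n = 2 each) gave a log2 difference of 0.48 ± 0.07 (SE, limma adjusted p = 0.0014), 1.39-fold higher. With the macrophage list set equal it was at -0.02.

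Cd9, which associates with integrins and with the precursor of the growth factor Hbegf and is abundant on platelets, macrophages and epithelium, had 894 and 1038 with imatinib and 1048 and 787 with vehicle. The 2 groups overlapped. The log2 difference was 0.08 ± 0.14 (SE, limma adjusted p = 0.76), or -0.41 with the macrophage list set equal, where it passed as lower (limma adjusted p = 0.031). On the deposited scale the 95% interval was -0.23 to 0.40, which does not reach the decrease of the epithelial markers or of Tspan1 and Tspan8. This interval covers array-to-array spread only, and the part of epithelial cells in the Cd9 value was not tested. The 3 tested platelet markers had a median log2 difference of -0.37: the chemokine gene Pf4 was higher (0.85), while Itga2b (-0.37) and Gp1bb (-0.52) did not pass. The platelet markers Gp9, Ppbp and Itgb3 had means of 48.2 or lower in both groups, below the signal filter, and were not tested.

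Cd82, a tetraspanin first known as a suppressor of metastasis, had 2 probe sets that pointed in opposite directions. The brighter one had 2276 and 2142 with imatinib and 1863 and 2133 with vehicle, with no overlap but a gap of only a few units between the nearest arrays. The difference on the log2 scale was 0.15 ± 0.10 (SE, limma adjusted p = 0.37, 95% interval -0.07 to 0.36), or -0.35 with the macrophage list set equal. The dimmer one had 109 and 127 with imatinib and 266 and 166 with vehicle, a log2 difference of -0.70 that did not pass (limma adjusted p = 0.086). The mean of both probe sets differed by -0.28, so no direction can be given for Cd82.

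Cd151, a partner of the laminin-binding integrins in epithelium and endothelium, was lower by a small margin. The brightest of its 6 probe sets had 1502 and 1412 with imatinib and 1738.5 and 1976.5 with vehicle. The arrays did not overlap, and the log2 difference was -0.34 ± 0.10 (SE, limma adjusted p = 0.041), 1.27-fold lower. All 6 probe sets had negative differences, between -0.43 and -0.10, and 4 of the 5 tested had both imatinib arrays below both vehicle arrays, as 28.3% of all tested probe sets did. Of these 5 the brightest passed and the others did not. The brightest 3 carry names that mark probes able to match several transcripts. The call was lost with array medians set equal (-0.15, limma adjusted p = 0.55) and without imatinib replicate 1, imatinib replicate 2 or vehicle replicate 2 (limma adjusted p = 0.074, 0.15 and 0.20).

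**Figure D2:**
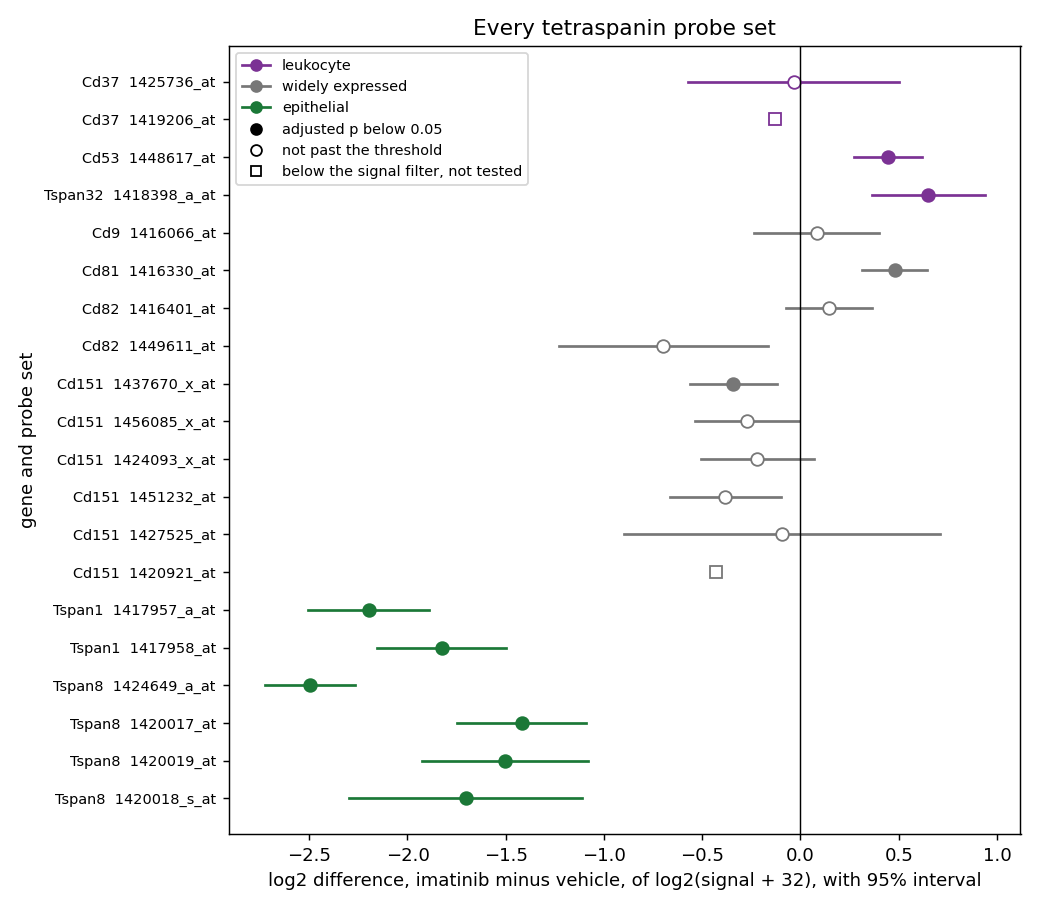
Log2 difference, imatinib minus vehicle, of log2(signal + 32) for each of the 20 probe sets of the 9 tetraspanin genes, with the 95% interval from limma for the 18 that were tested. Filled points passed an adjusted p below 0.05 and open points did not; the 6 epithelial probe sets lie between -2.50 and -1.42, and the other 14 between -0.70 and 0.65.

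In all, 3 of the 9 measured members were higher (Cd53, Tspan32 and Cd81), 3 were lower (Tspan1, Tspan8 and Cd151) and 3 did not pass, against 6.74% higher and 8.85% lower over all tested genes. All 9 passed the signal filter. By probe set, 3 of 18 were higher and 7 lower, against 6.05% and 7.48% over all tested probe sets. The imatinib arrays lay above both vehicle arrays for 4 members and below both for 3, as they did for 26.1% and 30.1% of all tested genes.

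The leukocyte and epithelial members were set side by side without a test, because the classes hold few genes that were chosen with results known and because 2 arrays against 2 cannot give an exact two-sided p below 0.333. The median log2 difference was -2.35 for the 2 epithelial members (range -2.50 to -2.20), 0.45 for the 3 leukocyte members (range -0.04 to 0.65) and 0.11 for the 4 widely expressed members (range -0.34 to 0.48), against -0.02 over all tested genes. The epithelial median minus the leukocyte median was -2.79 on the log2 scale. A common rescaling of the arrays shifts both classes together: the difference was -2.81 with array medians set equal and -2.79 with the macrophage list set equal. Without probe sets named for several transcripts, which leaves Cd37 and Cd53 in the leukocyte class and Tspan8 at -1.42, it was -1.83. If Cd9 and Cd151, which epithelium also expresses, are counted as epithelial, that class has a median of -1.27 and a range of -2.50 to 0.08.

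**Figure D3:**
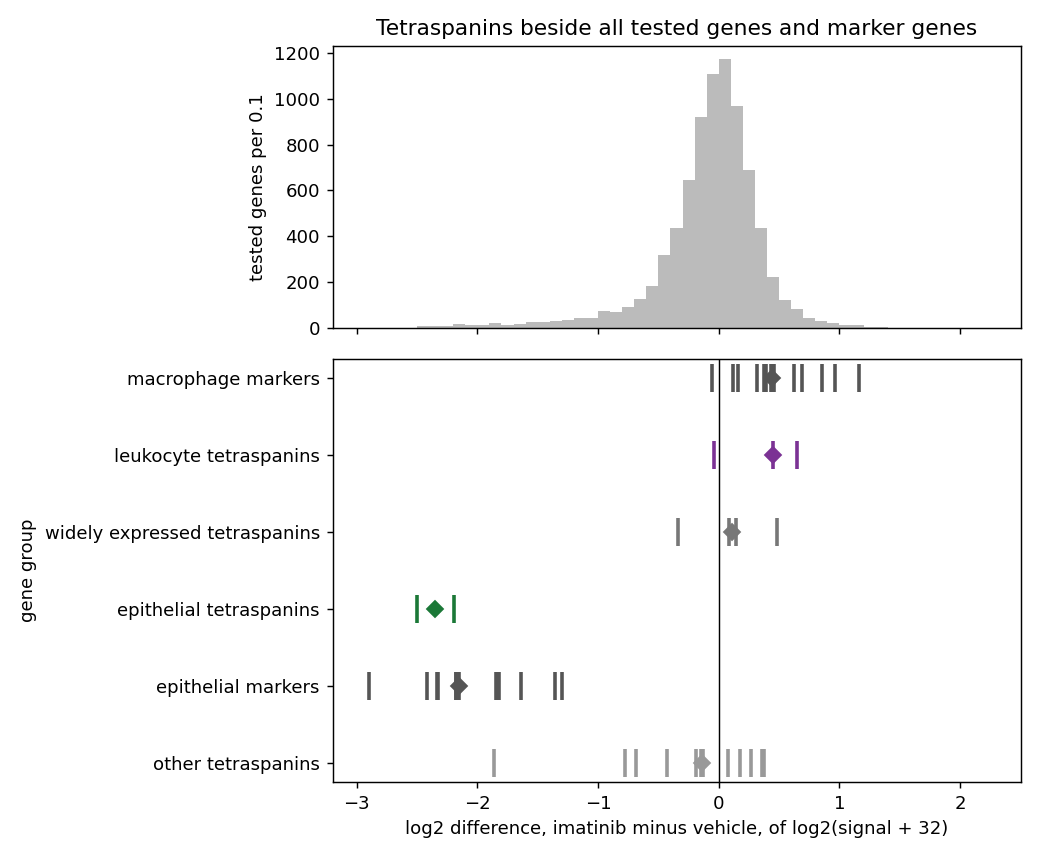
Log2 differences, imatinib minus vehicle, of the tetraspanin classes beside marker genes, with the histogram of all 8156 tested genes above (genes per 0.1). Each tick is a gene and each diamond the median of its group: the epithelial tetraspanins (median -2.35) lie within the range of the epithelial markers (median -2.15), and the leukocyte tetraspanins (median 0.45) within that of the macrophage markers (median 0.44). The range of the macrophage markers also holds the median of all tested genes (-0.02).

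Array scaling decided the sign of several members but not of Tspan1, Tspan8, Cd151 or Tspan32. With array medians set equal, the median over all tested genes moved to 0.16, and Cd53, Tspan32 and Cd81 were at 0.64, 0.84 and 0.68, all still past the threshold as higher. With the macrophage list set equal, the median over all tested genes was -0.52, no member passed as higher, and Cd9, Cd82, Cd151, Tspan1 and Tspan8 passed as lower. Over all genes, 43.2% of calls were higher on the deposited scale, 69.6% with array medians set equal and 1.70% with the macrophage list set equal.

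**Figure D4:**
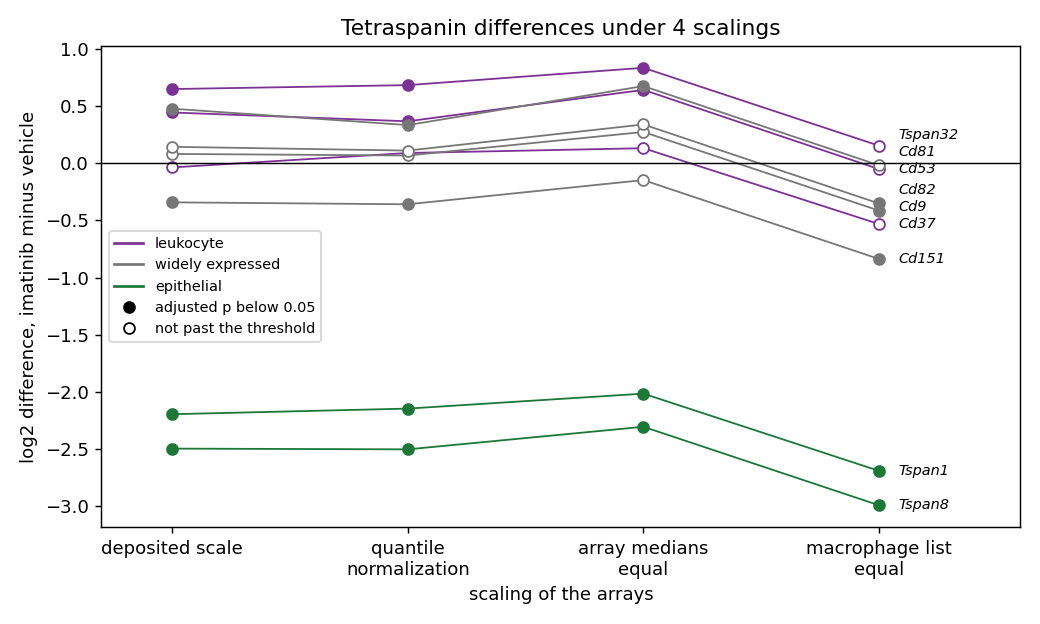
Log2 difference, imatinib minus vehicle, of each tetraspanin under 4 scalings of the arrays; filled points passed an adjusted p below 0.05 in limma. Tspan1 and Tspan8 stay below -2 and past the threshold under all 4, and Cd53 and Cd81 lie close to 0 once the macrophage list is set equal.

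Tspan32 and Cd81 are next to each other among the protein-coding genes of chromosome 7 in RefSeq. Both rose, while the next gene on the far side of Cd81, Tssc4, which was looked up after its neighbours' values were seen, did not pass (log2 difference 0.07, limma adjusted p = 0.86, or -0.43 with the macrophage list set equal). The genes on the far side of Tspan32, Ascl2 and Th, were below the signal filter. Cd151 lies close to Tspan4 on the same chromosome, and Tspan4 had a log2 difference of 0.36 that did not pass (limma adjusted p = 0.20).

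The promoters of the members that moved most are shown to let their composition be compared: those of Tspan8 and Tspan1, which were lower, and of Cd53, Tspan32 and Cd81, which were higher. Each is the 250 bases before the annotated start in RefSeq, build GRCm38.p6, 5′ to 3′ on the strand of the gene; the deposited values carry no genome build. Capitals mark matches on either strand to any of 5 motifs, GAGGAAG (the core of sites for the myeloid factor PU.1), GTTAAT (part of an HNF1 site), TTTATNG (a CDX site), TATAAA (the TATA box, whose reverse shares letters with the CDX site) and GGGCGG (an Sp1 site).
Tspan8, chr10:115817034-115817283, plus strand: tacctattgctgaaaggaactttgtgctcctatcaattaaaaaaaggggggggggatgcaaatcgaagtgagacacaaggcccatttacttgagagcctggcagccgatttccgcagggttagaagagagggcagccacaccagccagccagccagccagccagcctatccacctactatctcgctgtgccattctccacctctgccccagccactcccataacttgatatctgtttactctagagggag
Tspan1, chr4:116167599-116167848, minus strand: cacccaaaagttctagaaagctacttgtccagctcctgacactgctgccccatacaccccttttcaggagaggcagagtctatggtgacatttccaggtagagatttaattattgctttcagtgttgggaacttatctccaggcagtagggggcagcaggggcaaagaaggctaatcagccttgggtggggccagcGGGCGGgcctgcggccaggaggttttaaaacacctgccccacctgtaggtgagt
Cd53, chr3:106790150-106790399, minus strand: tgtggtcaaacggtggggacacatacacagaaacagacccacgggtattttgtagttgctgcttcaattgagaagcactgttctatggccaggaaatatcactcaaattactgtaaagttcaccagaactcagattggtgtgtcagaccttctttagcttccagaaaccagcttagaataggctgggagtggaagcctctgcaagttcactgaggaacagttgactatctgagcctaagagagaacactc
Tspan32, chr7:143004796-143005045, plus strand: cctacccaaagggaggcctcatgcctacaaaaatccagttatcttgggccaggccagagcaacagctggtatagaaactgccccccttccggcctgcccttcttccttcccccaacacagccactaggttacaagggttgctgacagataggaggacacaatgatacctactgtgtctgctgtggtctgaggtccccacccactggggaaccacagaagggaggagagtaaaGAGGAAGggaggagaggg
Cd81, chr7:143052500-143052749, plus strand: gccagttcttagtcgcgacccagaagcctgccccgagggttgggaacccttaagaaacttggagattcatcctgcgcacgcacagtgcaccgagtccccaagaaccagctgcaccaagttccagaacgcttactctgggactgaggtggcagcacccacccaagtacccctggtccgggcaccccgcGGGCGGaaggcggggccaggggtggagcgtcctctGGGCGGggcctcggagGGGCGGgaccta

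The Cd81 window held 3 matches to GGGCGG and that of Tspan1 held 1; over the 10 genes it was in 7 of 14 windows, and 32.7% of 32841 RefSeq windows of this length hold at least 1. GAGGAAG was in 4 of the 14 windows of the 10 genes, those of Tspan32 (its first base 18 bases before the start), Cd37, Cd63 and 1 of Cd82, and in 10.6% of all windows. The windows of Tspan8 and Cd53 held none of the 5. No window of the 10 genes held TTTATNG or TATAAA, which occur in 9.81% and 12.4% of all windows. GTTAAT, in 6.43% of all windows, was in 1 window of Cd82 and in that of Cd63. These are matches of letters and not evidence of binding.

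Of 21 other tetraspanin genes, 17 had a probe set and 12 passed the signal filter. Of these 3 were lower and none higher in limma (5 at an unadjusted p under 0.05), with a median log2 difference of -0.14. The shares over all tested genes were 8.85% lower and 6.74% higher. Tspan12, which takes part in Norrin and Frizzled signalling in the retina, had 23.6 and 27.7 with imatinib and 215 and 147 with vehicle (log2 difference -1.86, limma adjusted p = 0.0017). It reached the signal filter of 82.9 only through its vehicle arrays, so this call is not independent of the filter. Tspan15, which guides the protease Adam10 to its substrates, had 149 and 115 with imatinib and 249 and 247 with vehicle (-0.78, limma adjusted p = 0.023), and Tspan3 had 1166 and 1266 against 1556 and 1742 (-0.43, limma adjusted p = 0.016). Tspan15 lost its call after quantile normalization (limma adjusted p = 0.054), without the signal filter (0.081) and without imatinib replicate 2, vehicle replicate 1 or vehicle replicate 2 (0.098, 0.090 and 0.079). Tspan3 lost its call with array medians set equal (-0.23, limma adjusted p = 0.30), without the variance trend (0.11) and without imatinib replicate 1 or vehicle replicate 2 (0.091 and 0.092). The brightest that did not pass were Tspan13 (0.08, or -0.42 with the macrophage list set equal, while the mean of its probe sets passed as higher at 0.44, limma adjusted p = 0.0080) and Tspan31 (0.18, or -0.32 on that scale).

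Genes for proteins that bind tetraspanins moved in both directions. Of 16 tested partners, 6 were lower and 4 higher, with a median log2 difference of -0.06. Over all tested genes, 8.85% were lower and 6.74% higher. The largest decreases were in Epcam, which forms a complex with Tspan8 and the claudin Cldn7. Epcam had 545 and 569.5 with imatinib and 3058 and 3166 with vehicle (-2.42), and Cldn7 differed by -2.33. Both are also among the 13 epithelial markers. Hbegf, a growth factor whose precursor binds Cd9, had 289 and 241 with imatinib and 892 and 949 with vehicle (-1.69), and Itga3, a laminin-binding integrin subunit that pairs with Cd151, differed by -1.45. F11r (-0.46), a junction protein, and Adam10 (-0.49) completed the 6. The last 3 depended on the probe set: averaged over the probe sets of each gene, Itga3 was at -0.45, F11r at -0.14 and Adam10 at -0.13, and none passed (limma adjusted p = 0.35, 0.54 and 0.53). F11r and Adam10 also lost their calls with array medians set equal (limma adjusted p = 0.25 and 0.19) and without the variance trend (0.069 and 0.14), and Itga3 without the variance trend (0.073) and without vehicle replicate 1 (0.059).

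The 4 higher partners were Clec7a, Cd36, Cd44 and Sdcbp. Clec7a, which encodes the fungal receptor dectin-1 and associates with Cd37, had 14824 and 13632 with imatinib and 8121 and 8907 with vehicle (0.74, limma adjusted p = 0.00012). Cd36, a scavenger receptor that associates with Cd9, differed by 0.56, the hyaluronan receptor gene Cd44 by 0.36, and Sdcbp, which encodes the Cd63-binding adaptor syntenin, by 0.29. With the macrophage list set equal Clec7a still passed as higher, Cd36 was at 0.06, Cd44 was negative (-0.13), and Sdcbp passed as lower (-0.20, limma adjusted p = 0.018). Sdcbp also lost its call as higher without the signal filter, with the replicate number as a block and with the mean of probe sets (limma adjusted p = 0.075, 0.060 and 0.083). Without the variance trend neither Cd44 nor Sdcbp passed (limma adjusted p = 0.13 and 0.19), Cd44 did not pass without imatinib replicate 2 or vehicle replicate 2, and Sdcbp did not pass without imatinib replicate 1, vehicle replicate 1 or vehicle replicate 2 (limma adjusted p = 0.0835 to 0.133 over these 5). Of the brightest partners that did not pass, the integrin gene Itga6 differed by -0.21 and the membrane protease gene Mmp14 by 0.24, or -0.25 with the macrophage list set equal. Of 10 tested genes of extracellular vesicle formation none passed in limma (1 at an unadjusted p under 0.05), with log2 differences between -0.15 and 0.33.

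Markers of other cells that carry these tetraspanins gave mixed counts, to be set against 6.74% higher and 8.85% lower over all tested genes. Of 10 tested fibroblast markers 7 were lower (median log2 difference -0.996), and of 5 genes of GIST and interstitial cells of Cajal 3 were lower. Of 6 dendritic cell markers 3 were higher, and of 4 neutrophil markers 1 was. The dendritic cell marker Flt3 had a mean of 142 with imatinib and 48.5 with vehicle. It reached that filter only through its imatinib arrays, so its call as higher is not independent of the filter. None of 9 T cell markers, 5 endothelial markers and 3 mast cell and eosinophil markers passed in limma (0, 0 and 1 at an unadjusted p under 0.05). The part of these cells in the values of Cd9, Cd81, Cd82 and Cd151 was not tested.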

How the data were processed

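Per the submitters' processing notes, the deposited signal intensities (linear scale) come from MAS5 as run in Affymetrix Expression Console; its version and settings are not stated there, and detection calls were not used. MAS5 brings the arrays to 1 trimmed mean (500.3 on all 4), so that bright transcripts affect the scale of all others, and its low signals vary most. Of 22690 probe sets, 64 were controls. Only probe sets with 1 gene symbol in the platform annotation were named (20380; 691 had several and 1555 none).

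Signals were transformed as log2(signal + 32), which understates changes of dim genes. A gene was represented by its brightest probe set and tested if its mean signal over all arrays reached the 40th percentile (82.9). Groups were compared with limma (lmFit, eBayes with a trended prior variance; two-sided; prior 8.39 and residual 2 degrees of freedom) and Benjamini-Hochberg adjustment over 8156 genes, or over 12488 probe sets each on its own, at 0.05. Log2 differences are imatinib minus vehicle. The procedure was tested on simulated data. The number of arrays limits the precision. Promoters were searched for motifs by exact match.

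The members, gene lists and classes were chosen with earlier results of these data known. Named genes are all members, up to 5 called and 2 bright uncalled genes of the other tetraspanins and partners, and 2 bright markers of macrophages and epithelium. The remaining called partners, the platelet markers, Itgam, Flt3, Edn3, Cdx1, Cldn4, Tssc4, Ascl2, Th and Tspan4 were chosen after their values were seen. Alternatives were pseudocounts of 1 and 64, filters at the 60th percentile or none, equal array medians, quantile normalization, an equal macrophage list, no variance trend, a robust prior, the replicate number as a block, each array left out, averaging the probe sets of a gene, and leaving out probe sets named for several transcripts. Analyses used R 4.3.3, limma 3.58.1, Python 3.11.15 and matplotlib 3.10.9.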

Additional observations from a re-analysis of the deposited data

How the results depend on the processing

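Tspan1 and Tspan8 were lower and past the threshold in all 17 alternatives, with log2 differences of -2.69 to -1.83 and -2.99 to -1.42. Cd53, Tspan32 and Cd81 kept their calls except with the macrophage list set equal and, for Cd53 and Cd81, without the variance trend (limma adjusted p = 0.086 and 0.068); Tspan32 had no probe set left without probe sets named for several transcripts. Cd151 lost its call in 9 of 17. With the macrophage list set equal, 0 members were higher and 5 lower (0 and 13 probe sets), and without the variance trend 1 member and 1 probe set were higher; the first follows from the downward shift of every gene, and the cause of the second was not tested. On the macrophage list scale the sign turned for Cd53 (-0.051), Cd81 (-0.018), Cd9 (-0.41), Cd82 (-0.35), Tspan13 (-0.42), Tspan31 (-0.32), Cd44 (-0.13), Sdcbp (-0.20), Mmp14 (-0.25), Csf1r (-0.38) and Tssc4 (-0.43). Of these, Cd9, Cd82, Tspan13, Tspan31, Sdcbp, Mmp14 and Csf1r passed as lower on that scale. With the mean of probe sets the sign turned for Cd82 (-0.28) and Tspan31 (-0.027), with array medians equal for Cd37 (0.13) and Ctss (0.15), and under quantile normalization for Cd37 (0.091). Leaving out 1 array, which leaves a lone array assumed to vary like the others, gave -0.36 to 0.28 for Cd37, -0.12 to 0.28 for Cd9, -0.092 to 0.25 for Tspan13 and -0.15 to 0.29 for Tssc4.

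With the replicate number as a replicate block, 3 members were higher and 2 lower. The labels do not say that numbers pair the arrays, and the deviations of same-numbered arrays correlated at -0.13, so the crossed pairing was added after seeing the data; it gave 3 higher and 3 lower. Over all genes, 550 were higher and 722 lower; the counts were 1245 and 543 with array medians equal, 97 and 5618 with the macrophage list equal, 356 and 541 without the filter, 196 and 521 without the variance trend, 880 and 1095 with crossed numbers, and 294 to 461 and 488 to 701 with 1 array left out. Dim probe sets such as those of Cd37 limit what could be detected.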
